A study of Mus musculus with 6 samples.

Results

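The 8 Schwann cell and myelin genes Mbp, Pmp22, Mag, Prx, Sox10, Egr2, Pou3f1 and S100b were all read in mouse RPE/choroid, the retinal pigment epithelium (RPE) with the vascular layer behind it. They were taken by gene symbol, as 8 of the 33924 genes of the deposited table, a rule that uses no measured value. The 8 genes themselves were chosen with earlier results of these data known. Schwann cells are the glia of peripheral nerves, and the choroid is crossed by the ciliary nerves and holds the axons that supply its vessels. In such nerves a Schwann cell either wraps a single axon in myelin or encloses several thin axons without myelin. The transcription factor Sox10 defines the lineage, Pou3f1 marks the promyelinating stage, and Egr2 then drives the genes of the myelin sheath.

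The libraries came from C57BL/6J mice, 3 young and 3 aged, with both eyes of a mouse pooled and poly(A)-containing RNA selected after removal of ribosomal RNA. The sample titles give 1 to 2 months for the young mice and 20 to 24 months for the aged mice, while the age field gives 22 to 24 months for the latter. The labels describe all mice as male. The paper's methods differ, with mice of both sexes and a young group of 2 to 3 months. No mutation, transgene or treatment is named for either group. The table gives each gene 1 mean normalized count, which the authors took across all 6 libraries whatever their age, and no value for a single mouse. Its fold changes and p-values are the authors' own comparison and were not used, so aged and young mice are not compared here, no SD between mice can be given and no test was run. Every level below is therefore an average over both ages. Every interval of a level is a 95% Poisson interval with 6 times the mean taken as reads. It covers counting error only, and does so only if that number stands for reads.

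The mean counts of all genes summed to 40816668. The means of genes taken as read once in a single library placed the scaling factors of the 6 libraries between 0.959 and 1.06. These factors show that the scaling differed little between libraries, not that a unit of count is a read. The authors converted their counts from TPM, a measure already divided by length. That 6 times a gene's mean stands for its reads over all libraries is therefore an assumption. The intervals of levels and of ratios rest on it. The tissue label was checked against marker genes. Of 7 RPE markers, 6 had mean counts of 28192 (Rdh5) or more, and the seventh, Best1, had 81.8. The 6 rod photoreceptor markers summed to 252434 and the 6 skeletal muscle markers to 214107, although neural retina and eye muscles, like the optic nerve, were dissected away. In bulk tissue, fewer cells of a type and less RNA per cell cannot be told apart.

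As counts, the 8 genes were spread over most of the range of the table. S100b had a mean normalized count of 23979 (95% interval 23856 to 24104). Pmp22 had 5281 (5223 to 5339), and Mbp had 2493.5 (2454 to 2534). Sox10 followed with 1256 (1228 to 1285). Prx had 559.5 (540.8 to 578.8), and Mag had 220.3 (208.6 to 232.5). Egr2 had 122 (113 to 131), and Pou3f1, the least abundant, had 30.8 (26.5 to 35.5). Taken as reads, 6 times the mean was about 143876 for S100b and about 185 for Pou3f1, so relative counting error is smallest for the former. The 8 genes together held 0.0832% of all counts, and S100b alone made up 70.6% of that. The other 7 genes held 0.0244% of all counts.

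Counts rose with transcript length over all coding genes, though less than in proportion (log2 slope 0.28), and the genes were compared as counts per kilobase of their longest annotated transcript. The authors' counts came from TPM, which is already divided by length, so this step may correct too much, and the counts above are the other reading. The order of the 8 genes was the same on both scales, but Prx and Mag lay closer together per kilobase than as counts (559.5 and 220.3). On this scale the order was S100b with 16159, Pmp22 with 2898, Mbp with 519.8, Sox10 with 451.8, Prx with 103, Mag with 90.5, Egr2 with 41.1 and Pou3f1 with 7.99. The highest and the lowest differed 2022-fold. Over the 17952 genes with a mean count of at least 10 and a known length, the median was 213.9 counts per kilobase, and 4 of the 8 genes lay above it. S100b stood above 98.9% of these genes, Pmp22 above 93.3%, Mbp above 69.6% and Sox10 above 66.6%. Prx stood above 35.2%, Mag above 32.9%, Egr2 above 21.2% and Pou3f1 above 4.82%. Thus the members ran from the top of the expressed genes to near their lower end.

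**Figure D1:**
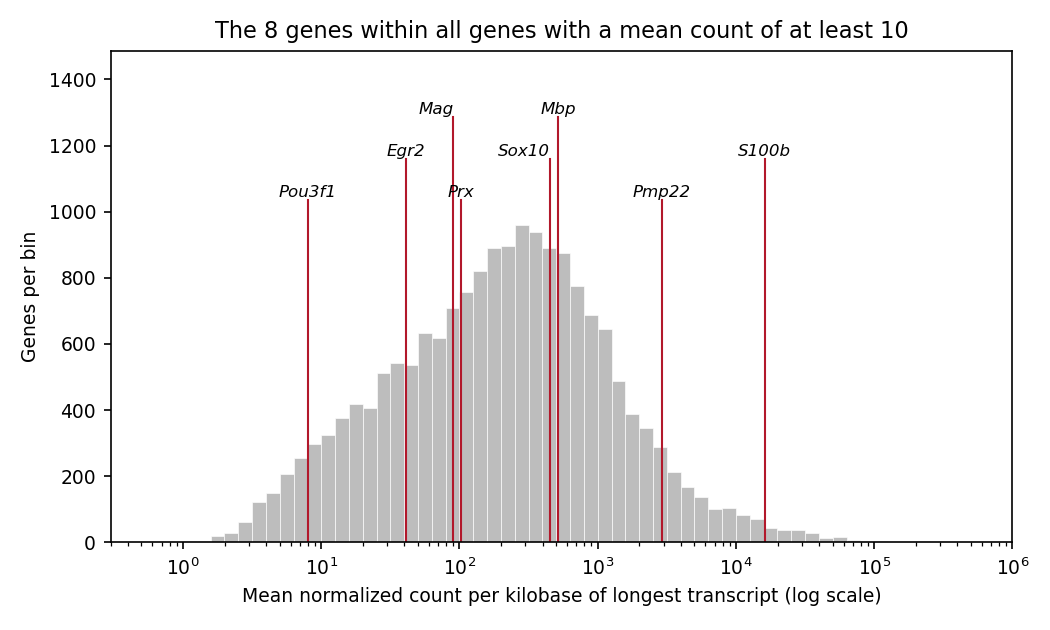
The grey bars count all genes whose mean normalized count reached 10 by their mean count per kilobase of longest transcript, on a log axis, and each red line is 1 of the 8 genes. S100b (16159) and Pmp22 (2898) lie in the upper tail, Mbp (519.8) and Sox10 (451.8) just above the middle, and Pou3f1 (7.99) in the lower tail.

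Neighbours in this order were set against the counting error of their ratio. S100b was 5.58 times Pmp22 per kilobase (95% exact binomial interval 5.51 to 5.64), and Pmp22 was 5.58 times Mbp (5.47 to 5.69). Mbp was 1.15 times Sox10 (1.12 to 1.18), and Prx was 1.14 times Mag (1.07 to 1.21). These latter pairs are near each other, and whether they differ beyond the spread between mice could not be examined. Mag was 2.20 times Egr2 (2.01 to 2.41), and Egr2 was 5.13 times Pou3f1 (4.36 to 6.06). The length taken for a gene turned the direction of 2 of these pairs. With the merged length of all exons Mbp was 0.715 times Sox10, and with the median transcript length Mag was 0.851 times Egr2, and with the median length Egr2 (135.2) also lay above Prx (119.8). Other pairs kept their direction but moved in size. S100b over Pmp22 was 2.24 and Egr2 over Pou3f1 16.9 with the median length, Pmp22 over Mbp was 3.31 with the coding length, and Prx over Mag was 1.85 with merged exons.

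**Figure D2:**
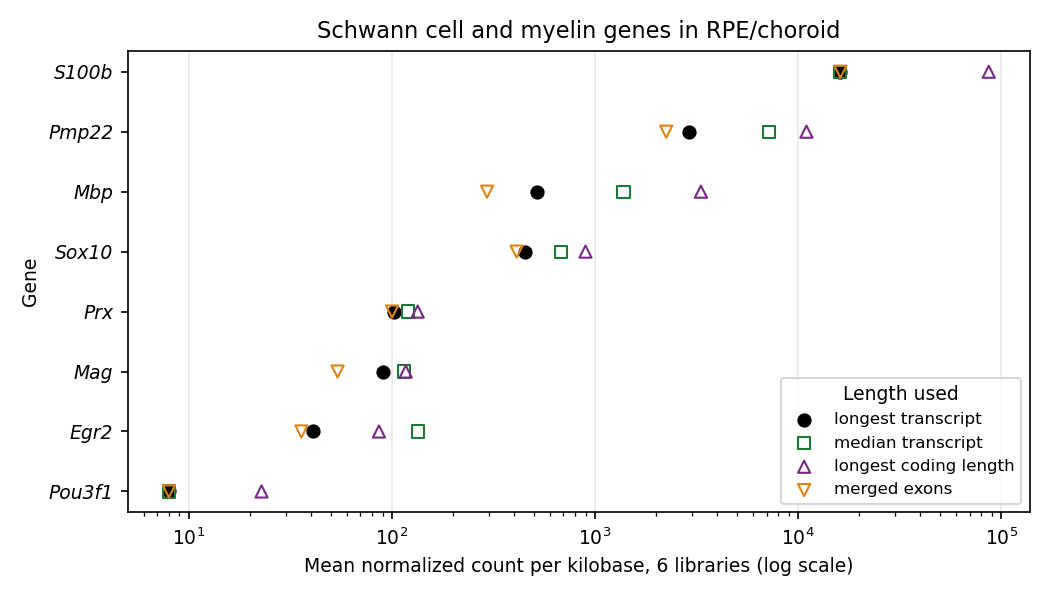
Each row is a gene and each symbol its mean normalized count over 6 libraries per kilobase, on a log axis, for 1 of 4 ways to measure gene length. The position of Mbp moved from 294.4 with merged exons to 3325 with the longest coding length, whereas S100b and Pou3f1, each with a single annotated transcript, moved only with the coding length.

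Mbp and Pmp22 encode proteins of compact myelin. Myelin basic protein (Mbp) joins the cytoplasmic faces of the membrane layers, and peripheral myelin protein 22 (Pmp22) is a membrane protein whose gene dosage is known from inherited neuropathies. In GRCm38, Mbp (ENSMUSG00000041607) is annotated at chr18:82475146-82585637 (plus strand), with 16 transcripts and exons of 8469 bases when merged. The locus also carries the longer Golli transcripts, which are made outside myelinating glia too, and the table does not separate them from Mbp of myelin. Pmp22 (ENSMUSG00000018217) is annotated at chr11:63128982-63159547 (plus strand), with 5 transcripts. Pmp22 is also made by many cells outside nerve.

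Prx and Mag serve the outer and the inner face of the sheath. Periaxin (Prx) links the outer Schwann cell membrane to dystroglycan through Drp2, and myelin-associated glycoprotein (Mag) sits next to the axon. Prx (ENSMUSG00000053198) is annotated at chr7:27499324-27520214 (plus strand), and 5.38% of its exon bases are overlapped by an exon of a gene on the other strand. Mag (ENSMUSG00000036634) is annotated at chr7:30899176-30914873 (minus strand), with 13 exons in its longest transcript. Per kilobase, Prx was 2.74 times Drp2 (95% interval 2.58 to 2.91), which had a mean count of 268.4. This ratio was 1.47 with the coding length. Dag1, the dystroglycan gene, had 264.4 counts per kilobase, above both Prx (103) and Mag (90.5).

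Mag is made by oligodendrocytes as well as by Schwann cells, so it was set beside Mog, which is made by oligodendrocytes. Mog had a mean count of 36.8. Per kilobase, Mag was 4.19 times Mog (3.63 to 4.85), and Prx was 4.76 times Mog (4.16 to 5.48). With the coding length these ratios were 2.36 and 2.70. Of the 12 listed oligodendrocyte genes, 4 had a mean count under 10, namely Olig1 (9.99), Olig2 (2.00), Hapln2 (9.32) and Nkx6-2 (6.88), and none was at 0. Others of that list were far higher, with Ermn at 13948 and Aspa at 1193 counts. Per kilobase, Cldn11 (434), Mobp (172.8), Myrf (162) and Tspan2 (99.98) also lay above Mag (90.5). Opalin (3.95) lay below Mag, as did Mog and the 4 genes under 10. The optic nerve, where the myelin of oligodendrocytes lies in the mouse eye, was cut away at dissection. Neural retina and eye muscles were cut away too, while rod and skeletal muscle markers summed to 252434 and 214107 counts. The listed oligodendrocyte genes summed to 17964 counts, and their part in the levels of Mbp and Mag was not tested.

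The 3 transcription factors differed widely. Sox10 (ENSMUSG00000033006), annotated at chr15:79154908-79165240 (minus strand), was read at 451.8 counts per kilobase, against 41.1 for Egr2 and 7.99 for Pou3f1. Egr2 (ENSMUSG00000037868) is annotated at chr10:67535475-67542188 (plus strand) and has 7 transcripts. Pou3f1 (ENSMUSG00000090125) is a gene of 1 exon at chr4:124656807-124660655 (plus strand), and 8.57% of its exon bases are overlapped by an exon on the other strand. The early growth response relatives of Egr2 lay on either side of it. Egr1 had 123.3 counts per kilobase, so that Egr2 was 0.333 times Egr1 (0.307 to 0.361), and Egr3 had a mean count of 1.33. With the median transcript length Egr2 was 0.919 times Egr1. Pou3f2, which can stand in for Pou3f1, had a mean count of 3.13, and Pou3f1 was 14.1 times Pou3f2 per kilobase (8.80 to 24.0).

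Jun, Sox2 and Zeb2 are known in nerve for the immature and injured state of Schwann cells or for its repression. Jun had 368.9 counts per kilobase, 8.98 times Egr2 (8.32 to 9.70), and Zeb2 had 407.3. Jun over Egr2 was 2.73 with the median transcript length and 13.6 with the coding length. Sox2 had 133.6, and Sox10 was 3.38 times Sox2 (3.21 to 3.57), or 5.09 times with the median transcript length. Of the 15 other transcription factors and coregulators listed, 13 had a mean count of at least 10. Of these, 8 lay above the median of all genes per kilobase, and Yap1 was highest with 874.6. Nab1 and Nab2, the corepressors that bind Egr2, had 838.3 and 257.9 counts per kilobase, above the 41.1 of Egr2. Which cells of the bulk tissue gave the counts of these factors was not tested, so their levels give no state of the Schwann cells.

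Sox10 is made in melanocytes too, and the choroid is rich in them. Mitf, a Sox10 target that RPE shares with melanocytes, had 1157 counts per kilobase, and Sox10 was 0.391 times Mitf (0.381 to 0.400). Dct, a pigment enzyme, was 164 times Sox10 (161 to 168). Sox10 over Mitf was 0.243 with the median transcript length, and Dct over Sox10 was 106 with merged exons. Pigment genes are also transcribed in RPE, and 8 of the 10 listed lay above the median of all genes. The 2 below it were Kit (61.2 counts per kilobase) and Pax3 (60.9), which are known in the melanocyte lineage, and Sox10 lay above both. Which share of the Sox10 reads came from melanocytes was not tested. Foxd3, a neural crest factor kept in glia, had 54.3 counts per kilobase. Of the markers of oligodendrocytes, the other glia that make Sox10, Olig1 and Olig2 were low, with 4.62 and 0.792 counts per kilobase. The 8 genes of that list with a mean count of at least 10 had a median of 167.4, and Ermn reached 3837. The part of oligodendrocytes in the Sox10 level was not tested.

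S100b encodes a calcium-binding protein of glia and was the most abundant of the 8 genes. The gene (ENSMUSG00000033208) is annotated at chr10:76253853-76261159 (plus strand), with 1 transcript of 1484 bases. Schwann cells, astrocytes and Müller glia make S100b, and melanocytes do as well. Its level of 16159 counts per kilobase was 16.3 times that of Gfap (16.1 to 16.6) and 54.5 times that of Aqp4 (53.3 to 55.6). S100b over Gfap was 42.8 with the coding length, and S100b over Aqp4 was 13.2 with the median transcript length. Glul, an enzyme of Müller glia that other cells also make, had 26320 counts per kilobase, and Dkk3 had 12804. Glul was 1.63 times S100b (1.62 to 1.64), but 0.756 times S100b with the coding length and 8.27 times with the median transcript length. Of the 6 astrocyte and Müller glia genes, 5 lay above the median of all genes, and their summed count was 123241. Their part in the S100b level was not tested. Per kilobase, S100b exceeded every gene in the lists of other myelin proteins, lipid enzymes and immature Schwann cells, of which Mal was highest with 4039.

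Other genes of the same pathway were read from lists. All 15 other peripheral myelin proteins had a mean count of at least 10, between 25.8 for Pmp2 and 11219 for Mal. Their median was 79.8 counts per kilobase against 213.9 over all genes, and 6 of the 15 lay above the latter. Mal and Cadm4 (1268) were the highest, and Pmp2 (18.3) and the connexin gene Gjb1 (19.0) the lowest. Only 13.3% of the 50-base words of Pmp2 are found in no other annotated gene, so its count is uncertain. For the 8 Schwann cell and myelin genes this share was 99.7% or more. Among enzymes of myelin lipids, Cers2, listed in the table under its older symbol Lass2, had 2289 counts per kilobase. Ugt8a and Gal3st1, which make galactosylceramide and sulfatide, had 41.9 and 34.7, and Fa2h had a mean count of 6.56.

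Signals from the axon reach Schwann cells through neuregulin 1 (Nrg1) and the receptors Erbb2 and Erbb3. Nrg1 had a mean count of 9.84, whereas Erbb3 had 862 and Erbb2 469.6. These are mRNA levels of the dissected tissue, and the Nrg1 protein on axons was not measured. Per kilobase Erbb3 was 1.53 times Erbb2 (1.46 to 1.60). Adgrg6, the adhesion receptor that switches on Pou3f1 and Egr2 in development and is listed under its older symbol Gpr126, had 120.7 counts per kilobase. The laminin gene Lama2 had 220.2 and the laminin receptor subunits Itga6 and Itgb4 had 671.5 and 31.3. Of the 12 genes of this list, 11 had a mean count of at least 10 and 5 lay above the median of all genes.

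All 10 genes of immature and non-myelinating Schwann cells were read, with a median of 323 counts per kilobase, and 6 lay above the median of all genes. This was the highest median of the Schwann cell lists with the longest transcripts, whereas with the median transcript length the axon signalling list was higher (691.6 against 587.6). Cdh19, a cadherin of the Schwann cell lineage, had 425.1 counts per kilobase, 4.13 times Prx (3.97 to 4.29). The sodium channel gene Scn7a had 188.2, Ngfr, the low-affinity neurotrophin receptor, 91.2, and L1cam 64.3. By these levels Cdh19 lay next to Sox10 (451.8), and Ngfr next to Mag (90.5). Gfap, which Müller glia and astrocytes also make, had 988.4. Gpm6b was the highest of the list with 1442, and Matn2 and Ncam1 had 739 and 474.4. Which cells of the bulk tissue gave the counts of this list was not tested.

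**Figure D3:**
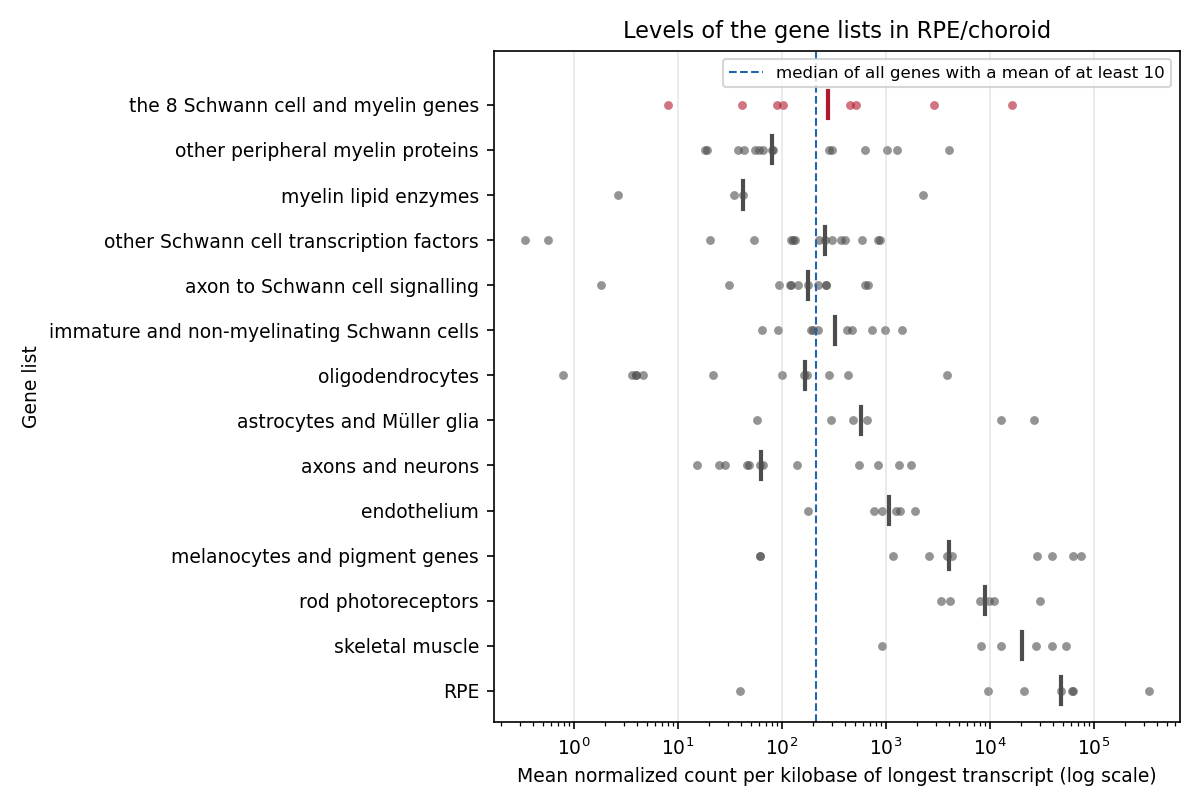
Each dot is a gene, placed by its mean normalized count per kilobase of longest transcript on a log axis, each bar is the median over the genes of a list with a mean count of at least 10, and the dashed line is the median of all such genes (213.9). The medians of the Schwann cell lists lie between 41.9 and 323, whereas those for rods (8974), skeletal muscle (20416) and RPE (47916) lie far to the right, and a gene at 0 (Scn10a) is not drawn.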

How the data were processed

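Per the supplementary methods of the study, the authors trimmed paired reads with BBDuk, mapped them with STAR to Ensembl GRCm38 transcripts, quantified TPM with Sailfish and converted these to counts scaled by the library total. The deposited signal used here is the mean normalized count per gene that DESeq2 wrote for the authors over all 6 libraries. The columns of log2 fold change, standard error, statistic and p-values are the authors' comparison and were not used. The deposited values hold nothing per library, so the planned fit of aged against young was not run. How deeply each library was sequenced could not be read from the table.

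Gene lengths and positions came from GENCODE M21 (GRCm38), matched by symbol or synonym for 97.1% of the 18479 genes with a mean of at least 10. Of the 130 listed genes, 5 were found by an older symbol. Over 15518 coding genes the log2 slope of count on length was 0.28, and per-kilobase values assume that the counts made from TPM still carry length. Among 72 ribosomal protein genes the means ran from 197 to 40692, with a median of 6750. The members and lists were chosen with earlier results of these data known. All 8 members and any listed gene could be named. Some listed genes are not reported here by name. The marker lists were for immature and non-myelinating Schwann cells, oligodendrocytes, astrocytes and Müller glia, melanocytes, axons and neurons, RPE, rods, skeletal muscle and endothelium. Exons of each gene were cut into words of 50 bases to count those found in no other gene. Intervals of ratios were exact binomial. The Poisson intervals of the levels were run only on simulated Poisson counts. Those hold no spread between mice and no conversion from TPM, so they cannot show how the intervals do on these data. Alternatives were other minimum means, other gene lengths and other scales. Python 3.11.15, numpy 2.4.6, pandas 2.3.3, scipy 1.17.1 and matplotlib 3.10.9 were used.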

Additional observations from a re-analysis of the deposited data

How the results depend on the processing

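The 8 genes lay above a median of 55.4% of the 18479 genes with a mean count of at least 10, by count. This value was 67.7% with no filter, 47.4% with a minimum of 50 and 50.9% when ranked per kilobase. With the minimum of 50, Pou3f1 (mean count 30.8) was itself below the filter and entered this median at 0%. The median level of the 8 genes, 277.4 counts per kilobase of longest transcript, was 407.5 with the median transcript length and 516.2 with the longest coding length. It was 197.4 with merged exons, and these shifts follow from the length used. The median level was 12.9 on a TPM-type scale, which divides each per-kilobase value by the sum of these values over genes. With the median transcript length 5 of the 8 kept their place in the order, and with merged exons 6 did. Of the single genes and lists, 18 values moved beyond their counting interval and 3 did not with the median transcript length, against 12 and 9 with no filter and 5 and 3 with merged exons. All 8 moved with a minimum of 50, with the coding length, ranked per kilobase and on the TPM-type scale. The last is a change of unit, which by itself moves the values. Of the 13 other lists 8 had a median above that of all genes, 9 with no filter and 10 with the median transcript length. By count instead of per kilobase, axon signalling (1142) and oligodendrocyte genes (689.6) also had medians above that of all genes (667.9). The remaining lists stayed on the same side.

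No paired analysis was possible because the deposited means combine all mice. For the same reason the replicates could not be left out in turn and other pseudocounts were not run. The intervals leave out the spread between mice, the choice of gene length and the conversion from TPM.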

Other observations

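Axon and neuron genes were read beside those of the glia. Of 13 listed, 12 had a mean count of at least 10, and their median was 63.3 counts per kilobase. Snap25, a synaptic protein that retinal neurons also make, was highest with 1735 counts per kilobase. The neurofilament genes Nefl, Nefm and Nefh had 1330, 65.2 and 61.5. Prph, an intermediate filament gene of peripheral neurons, had a mean count of 90.5, and Scn10a, a sodium channel gene of sensory neurons, was listed at 0. Genes of transmitters known in the nerves of the choroid were low, with mean counts of 29.4 for Th, 71.4 for Chat, 115.7 for Vip and 284.6 for Nos1. How these mRNA levels relate to the number of axons in the tissue was not tested.

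Endothelial genes stood higher than the Schwann cell lists. All 6 were read with a median of 1079 counts per kilobase, from 179.4 for Cdh5 to 1909 for Plvap, a protein of the fenestrated choriocapillaris.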
